A study of Mus musculus with 491 samples.

Results

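The solute carrier genes described here are the mouse genes whose symbol begins with Slc and a digit and whose deposited value reached an FPKM of 1 in at least 5% of 491 single cells. FPKM is the fragment count per gene scaled to transcript length and library size. Of 19494 genes with a usable row, 354 were Slc genes, and 176 of these passed the limit. Members were thus chosen by their own measured values, and how widely a member was found is a description and not a result. All 176 are annotated as protein coding. By name 4 of them are not carriers: Slc4a1ap and Slc7a6os are named after a neighbouring or interacting carrier, and Slc9a3r1 and Slc9a3r2 encode PDZ scaffold proteins that bind carriers of the Slc9 family.

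The cells came from mouse embryos at E10.5 with the genotype Pax2-Cre/+;Ai14-tdTomato/+, and every cell carries both alleles. Ai14 is a reporter that turns on the red protein tdTomato for good once Cre has acted, so the sorted tdTomato+ cells are those in which Pax2-Cre was active, or descend from such cells. Otic vesicle, the epithelial sac that forms the inner ear, was dissected with the periotic tissue around it, and single cells were sorted into plates. Titles give 2 replicates, of 237 cells on plates 1 to 3 and of 254 cells on plates 4 to 6. No untreated or mutant group exists, and the comparisons are between classes of cells.

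Solute carriers move ions, sugars, amino acids, nucleotides, metals and transmitters across membranes by facilitated diffusion, cotransport or exchange. Many sit in the plasma membrane, the Slc25 family lies mostly in the inner mitochondrial membrane, the Slc35 family supplies nucleotide sugars to the endoplasmic reticulum and Golgi, and the Slc17, Slc18 and Slc32 families fill synaptic vesicles with transmitter. In the mature inner ear, carriers of the Slc4, Slc9, Slc12 and Slc26 families secrete and adjust the fluid that bathes the hair cells, while the sensory neurons that arise from the otic vesicle use glutamate.

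No label gives a cell type, so classes were made by clustering cells on marker genes, none of which is an Slc gene. Otic epithelium-like cells numbered 143, surface ectoderm-like cells 41, neural tube progenitor-like cells 96, early neuroblast-like cells 29, differentiating neuron-like cells 60, epibranchial neuron-like cells 54 and mesenchyme-like cells 23. Each class held a defining marker of its name. Transcripts of Oc90, a protein of the otoconia, reached 58.7% of the otic epithelium-like class, Trp63 95.1% of the surface ectoderm-like, Fabp7 94.8% of the neural tube progenitor-like, Neurog1 65.5% of the early neuroblast-like and Stmn2 93.3% of the differentiating neuron-like class. Other markers did not all follow: among otic epithelium-like cells Pax2 reached 14% and Hmx3 17.5%, while Sox10, listed for neural crest, reached 81.1%, and Krt5, a marker of mature epidermis, reached 9.8% of surface ectoderm-like cells. Within the early neuroblast list, Neurod1 reached 96.6%, Insm1 86.2% and Nhlh1 44.8% of early neuroblast-like cells. In differentiating neuron-like cells these markers reached 98.3%, 96.7% and 85.0%. Neurog1, Eya2 and Neurod4 were less frequent there, although Neurod4 reached 72.2% of epibranchial neuron-like cells. The summed log2(FPKM + 1) of this list averaged 24.25 in early neuroblast-like and 23.83 in differentiating neuron-like cells. When each cell was given to its highest marker list, 54.5% of otic epithelium-like, 56.7% of differentiating neuron-like and 90.2% of surface ectoderm-like cells kept their class. Clusters 3 (17 cells, led by Otx2, Lmx1a and Wnt1) and 11 (28 cells, with neuronal and neural tube markers) kept their numbers. Both replicates held each class, and the early neuroblast-like class was the most uneven, with 8 and 21 cells.

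Wells were not independent of each other. At 19 positions on the plates, transcripts that were rare elsewhere and had an FPKM of at least 20 in a source well were also found in a second well in at least 24.2% of cases in both replicates, against at most 6.6% at all other positions, and at a median of 3.7% of the source level. A source well existed for 337 cells and did not for 154. In those 154 cells alone, 37 of the 59 calls below that could be tested were lost, and the difference or adjusted p there is given beside each lost call of a member described below. Fewer cells and the absence of transfer cannot be told apart in that setting. When values of all wells were instead corrected for transfer, 61 of the 65 calls remained. In addition, 7 cells held at least 4 endothelial or macrophage markers: 3 neural tube progenitor-like, 3 epibranchial neuron-like and 1 otic epithelium-like cell. Without these 7 cells 63 of the 65 calls below remained.

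Comparisons used the log2(FPKM + 1) values averaged over the cells of a class in each replicate, so each class has n = 2. Such a mean moves both with how many cells hold a transcript and with how much of it they hold. Each difference below is between these means, with its standard error (SE) and its Benjamini-Hochberg adjusted p from limma over 10195 genes. A gene is called at an adjusted p below 0.05. Classes and values come from the same cells, which the p-values do not allow for. The labels do not say whether the replicates are separate embryos, litters or sorting days. A shift shared by all classes of a replicate is taken out by the fit. The p-values thus measure how far class differences vary between these 2 samples, which may be technical. That spread is pooled over all groups of cells (8 residual degrees of freedom). A gene therefore has the same SE for small and large classes.

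Breadth differed by role. Across all cells, 31 members were found in at least 50% of cells, 5 in at least 90%, 3 in all cells, and 86 in under 20%. Mitochondrial carriers were the most widely found, with a median of 29.9% of cells over 33 members, and all 44 Slc25 genes with a row were found in at least 1 cell. Nucleotide sugar carriers followed with a median of 27.1% (19 members of 23 genes), amino acid carriers with 26.3% (22 of 48) and metal ion carriers with 25.1% (21 of 32). Inorganic ion and acid-base carriers had a median of 18.1% (23 of 59), and hexose and monocarboxylate carriers 13.4% (14 of 34). Neurotransmitter carriers were the least widely found, with a median of 8.76% of cells over 8 members of 21 genes. The remaining 36 members of 93 genes, which move nucleosides, folate, vitamins, choline and other solutes, had a median of 18.7%.

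**Figure D1:**
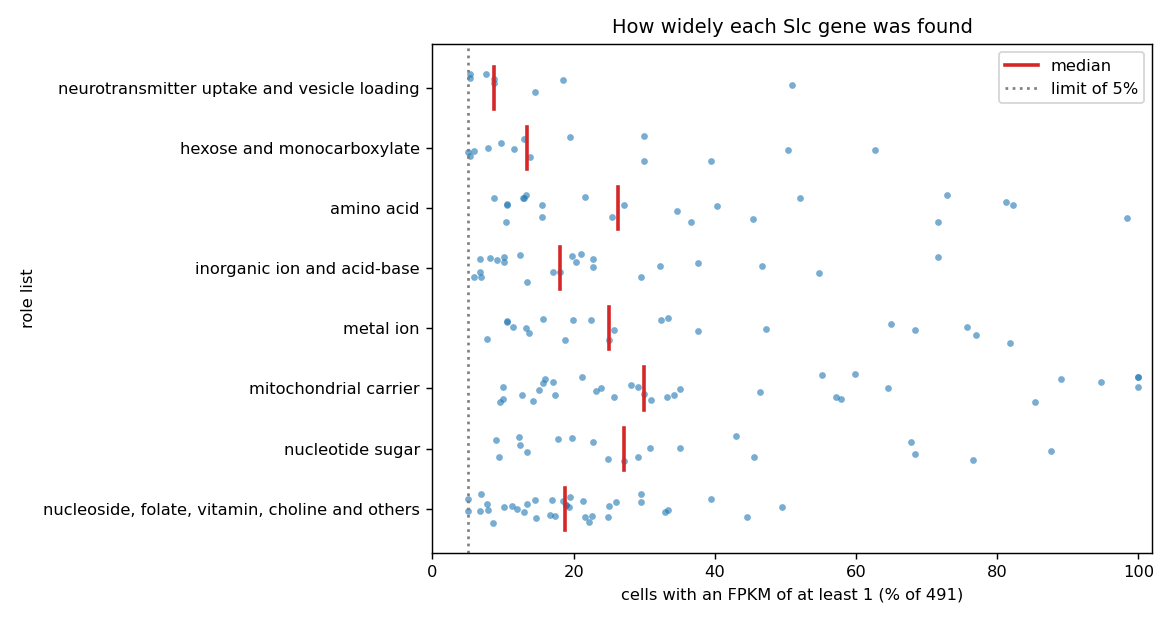
Share of the 491 cells in which each of the 176 Slc genes was found (x axis, percent of cells with an FPKM of at least 1) by role list (y axis); points are genes, red bars are medians and the dotted line is the limit of 5%. Mitochondrial carriers have the highest median (29.9%) and neurotransmitter carriers the lowest (8.76%).

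Most of the 10 members with the highest mean level, in log2(FPKM + 1) over all cells, were of the Slc25 family. Slc25a5 (9.11) and Slc25a4 (8.88), which exchange ADP for ATP across the inner mitochondrial membrane, stood at the top with Slc25a3 (7.58), the mitochondrial phosphate carrier. Slc25a39 (6.15) and Slc38a2 (6.03), a sodium-coupled carrier of neutral amino acids, came next. Slc25a17 (5.21) lies in the peroxisome, Slc35b1 (5.03) in the endoplasmic reticulum, Slc25a11 (4.78) exchanges oxoglutarate for malate, Slc39a7 (4.58) releases zinc from the endoplasmic reticulum and Golgi, and Slc3a2 (4.14) is the heavy chain shared by several amino acid exchangers. Of these 10 genes, Slc25a4 and Slc25a5 were the 2 called between any of the classes compared.

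Few members were called in any 1 contrast, and their shares lay around those of all genes tested. Otic epithelium-like minus surface ectoderm-like cells gave 2 members higher (1.14% of the 176, against 1.22% of all genes) and 4 lower (2.27%, against 1.49%). Otic epithelium-like minus neural tube progenitor-like cells gave 4 higher (2.27%, against 2.45%) and 0 lower (against 0.863%, with 2 lower at an unadjusted p below 0.05 in limma). Otic epithelium-like minus differentiating neuron-like cells gave 7 in each direction (3.98% each, against 4.05% and 4.06%). Surface ectoderm-like minus neural tube progenitor-like cells gave 8 higher (4.55%, against 4.17%) and 2 lower (1.14%, against 1.55%), and surface ectoderm-like minus differentiating neuron-like cells gave 9 higher (5.11%, against 4.79%) and 8 lower (4.55%, against 5.42%). Neural tube progenitor-like minus differentiating neuron-like cells gave 2 higher (1.14%, against 1.73%) and 6 lower (3.41%, against 4.85%). In all 8 contrasts, including the 2 along the otic lineage given further on, 15 to 31 members passed an unadjusted p below 0.05. The median difference over the members lay between -0.20 and 0.15, beside -0.17 to 0.16 over all genes.

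**Figure D2:**
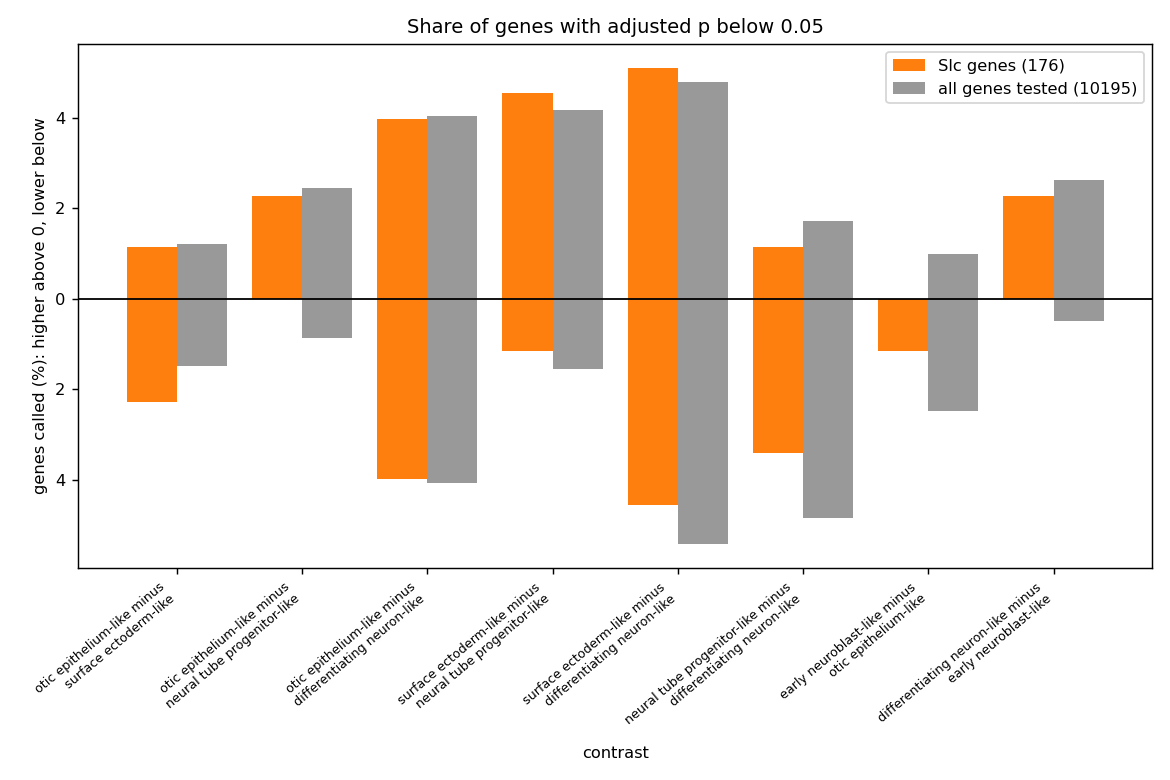
Percent of genes called at an adjusted p below 0.05 (y axis, higher in the class named first above 0 and lower below 0) in each of the 8 contrasts (x axis), for the 176 Slc genes (orange bars) and all 10195 genes tested (grey bars). The bars are longest between surface ectoderm-like and differentiating neuron-like cells, at 5.11% higher and 4.55% lower for Slc genes against 4.79% and 5.42% for all genes.

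In at least 1 of the 8 contrasts 29 members were called (16.5%, against 17.3% of all genes), for 65 calls in all. By role these were 5 of 8 neurotransmitter carriers, 7 of 23 ion carriers and scaffolds, 3 of 14 hexose and monocarboxylate carriers, 3 of 21 metal carriers, 3 of 22 amino acid carriers, 4 of 33 mitochondrial carriers, 4 of 36 others and 0 of 19 nucleotide sugar carriers, of which 6 had an unadjusted p below 0.05 in limma in some contrast. The neurotransmitter count includes Slc17a6 and Slc17a7, which passed the limit of 5% only through the class where they are high. The same holds for Slc26a9 (ion), Slc40a1 (metal) and Slc25a21 (mitochondrial). Such genes had to differ to be counted, so they add no support to these counts. Leaving out each of the 6 plates in turn kept 34 of the 65 calls throughout, on 14 genes, and 12 calls on 7 genes held under every alternative that could test them. These 7 genes were Slc25a21, Slc26a9, Slc2a3, Slc38a4, Slc1a3, Slc17a6 and Slc1a2. Of these, Slc25a21, Slc26a9 and Slc17a6 passed the limit only through the class where they are high, so their calls add no support. A filter of 10% of cells could not test these genes.

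**Figure D3:**
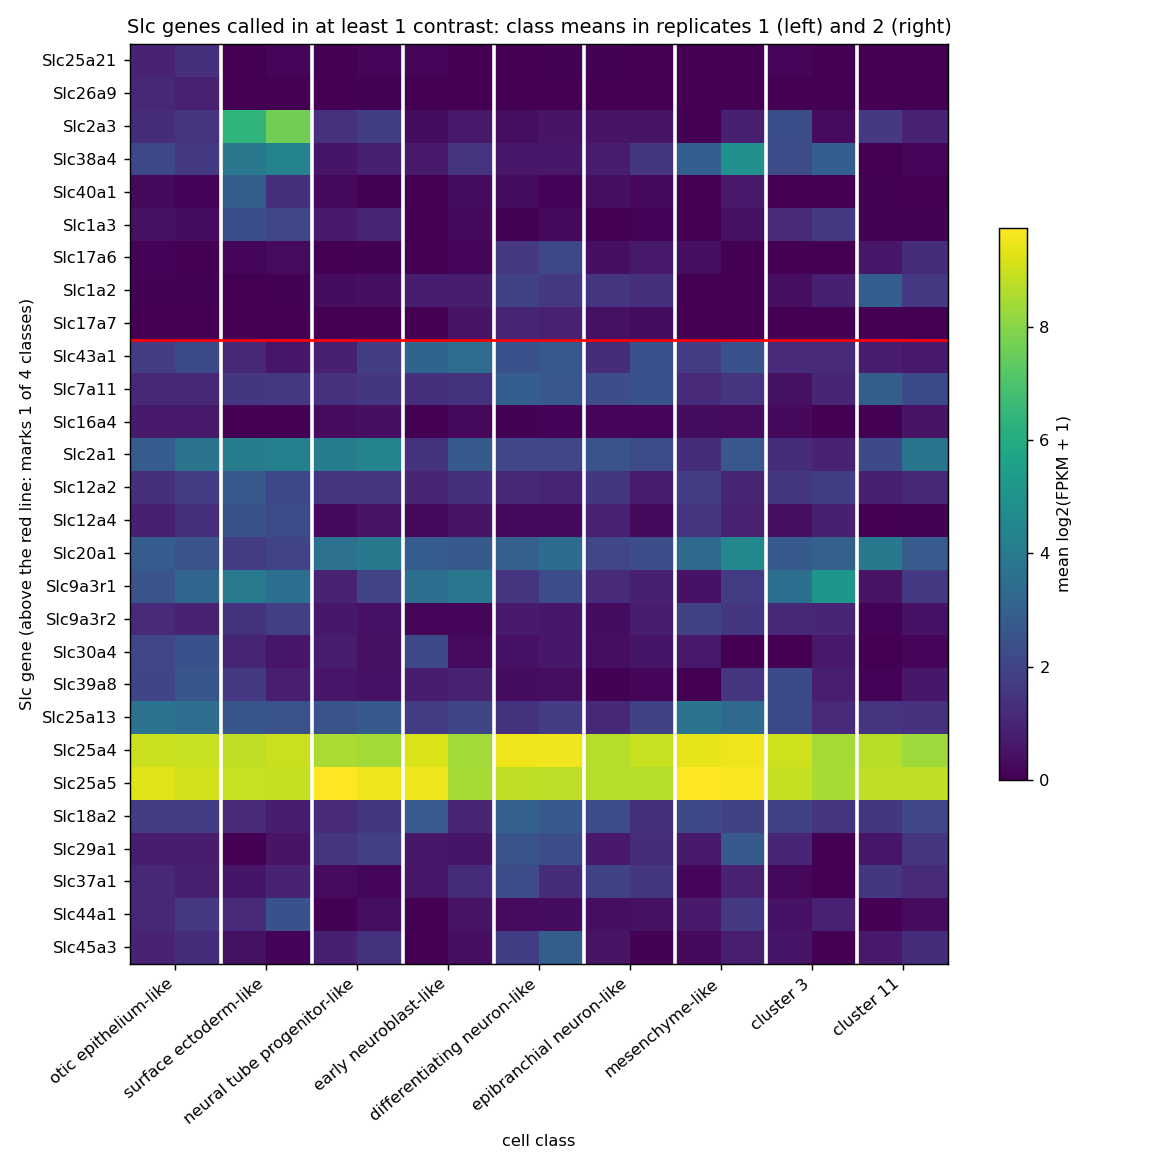
Mean log2(FPKM + 1) (colour) of 28 of the 29 Slc genes called in at least 1 contrast (rows) by class (columns, replicate 1 on the left and replicate 2 on the right of each pair). The 9 genes above the red line were called higher in 1 of 4 classes than in each of the other 3; Slc2a3 in surface ectoderm-like cells is the brightest of these, at 6.39 and 7.66.

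A member was taken to mark a class when it was called higher there than in each of the other 3 of otic epithelium-like, surface ectoderm-like, neural tube progenitor-like and differentiating neuron-like cells. This held for 10 members (5.68%, against 5.51% of all genes): 2 for otic epithelium (0.696% of all genes), 4 for surface ectoderm (1.21%), 4 for differentiating neurons (3.05%) and 0 for the neural tube (0.559%). In 5 of the 10, Slc25a21, Slc26a9, Slc40a1, Slc17a6 and Slc17a7, the cells outside the marked class alone would not have passed the limit of 5%, so these had to differ to be counted and add no support to the count. Slc2a3 is also among the leading genes of the cluster that forms the surface ectoderm-like class, although it took no part in the clustering.

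Otic epithelium-like cells were marked by Slc25a21, a mitochondrial carrier of oxodicarboxylates, and Slc26a9, an anion transporter for chloride and bicarbonate. Slc25a21 (ENSMUSG00000035472) lies on the minus strand at chr12:56712634-57197472 of GRCm38, and Slc26a9 (ENSMUSG00000042268) on the plus strand at chr1:131744022-131771504. Because these genes were high in the same class, the 100 bases that end just before the RefSeq start of each are shown from the GRCm38.p6 promoter table, 5′ to 3′ on the gene's own strand. Capitals mark every match of CANNTG, the E-box bound by neurogenic and other basic helix-loop-helix factors, of GGGCGG, the GC box, and of TATAAA, the TATA box, the last 2 read on both strands. Among 32851 promoters of the same length, 34.4% held CANNTG, 24.7% GGGCGG and 5.6% TATAAA. The Slc25a21 window (chr12:57197473-57197572, 1 of its 2 listed starts) held 1 CANNTG, while that of the other start (chr12:57160644-57160743) held none and 1 TATAAA. The Slc26a9 window (chr1:131743922-131744021) held TATAAA on both strands in overlapping letters.
Slc25a21: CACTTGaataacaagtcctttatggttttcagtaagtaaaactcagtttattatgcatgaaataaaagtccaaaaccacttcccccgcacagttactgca
Slc26a9: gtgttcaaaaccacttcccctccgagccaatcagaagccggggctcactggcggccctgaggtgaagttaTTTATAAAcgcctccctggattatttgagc

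Slc25a21 had class means of 0.97 and 1.34 in the otic epithelium-like cells of replicates 1 and 2, and at most 0.18 in any replicate of the other 8 groups of cells. Transcripts were found in 40 of 143 otic epithelium-like cells (28.0%, exact 95% interval 20.8 to 36.1) and in 2.01% of the cells outside. Its differences were 1.07 from surface ectoderm-like (SE 0.17, adjusted p = 0.000882), 1.08 from neural tube progenitor-like and 1.12 from differentiating neuron-like cells. Slc26a9 had means of 1.09 and 0.91 there, and at most 0.07 in any other group. Slc26a9 transcripts were found in 32 of 143 cells (22.4%, 15.8 to 30.1), in 0 of 41 surface ectoderm-like cells (at most 8.6%) and in 0.57% of the cells outside. The differences of Slc26a9 were 1.0 from surface ectoderm-like (SE 0.15, adjusted p = 0.000425), 0.97 from neural tube progenitor-like and 0.99 from differentiating neuron-like cells. Both genes were higher in otic epithelium-like cells on 6 of 6 plates in every one of these contrasts.

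Within the otic epithelium-like class these genes were uneven. Slc25a21 was found in 19 of 38 cells of cluster 7, the cluster led by Oc90 and Dlx5, against 18 of 89 in cluster 0 and 3 of 16 in cluster 2. Slc26a9 followed the same order, in 15 of 38, 15 of 89 and 2 of 16 cells. The differences between these clusters were not tested. Together the genes were found in 60 of 143 cells, with 12 cells holding both, beside 9.0 cells if each were spread independently. In the 42 otic epithelium-like cells without a source well Slc25a21 was found in 10 and Slc26a9 in 7. With such cells alone the adjusted p was 0.152 for Slc25a21 and 0.0707 for Slc26a9 against surface ectoderm-like cells, with differences of 0.84 for each, and 0.137 and 0.071 against neural tube progenitor-like cells. The calls of both genes against differentiating neuron-like cells remained.

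Besides these, 2 zinc carriers were called higher in otic epithelium-like cells than in neural tube progenitor-like and differentiating neuron-like cells. Slc39a8, which imports zinc and manganese, had means of 2.04 and 2.61 in otic epithelium-like cells, 0.59 and 0.48 in neural tube progenitor-like, and 0.33 and 0.38 in differentiating neuron-like cells. The differences were 1.79 (SE 0.48, adjusted p = 0.0444) and 1.97 (adjusted p = 0.0118). Slc30a4, which carries zinc the other way, out of the cytosol, had 2.07 and 2.47 in otic epithelium-like cells against 0.73 and 0.44 in neural tube progenitor-like cells (difference 1.69, SE 0.43, adjusted p = 0.0337) and 0.49 and 0.62 in differentiating neuron-like cells (1.72, adjusted p = 0.015). Against the neural tube, the call of Slc39a8 was lost without plate 1, 2, 3, 4 or 6 (adjusted p up to 0.144) and that of Slc30a4 without plate 2, 3, 4, 5 or 6 (up to 0.127). With the log taken after averaging FPKM, neither gene was called against the neural tube or differentiating neurons. The adjusted p-values were 0.59 and 0.162 for Slc39a8, and 0.112 and 0.0742 for Slc30a4. In cells without a source well all 4 calls were lost: Slc30a4 differed by 1.04 from the neural tube (adjusted p = 0.839) and 0.63 from differentiating neurons (0.79), and Slc39a8 by 2.22 (0.147) and 2.49 (0.0522). Neither gene was called against surface ectoderm-like cells, which had 1.63 and 0.83 of Slc39a8 and 1.0 and 0.58 of Slc30a4. The 2 zinc carriers were found together in 26 of the 143 otic epithelium-like cells, beside 30.3 if independent.

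Slc25a13, the mitochondrial aspartate-glutamate carrier, had means of 3.72 and 3.5 in otic epithelium-like cells and 1.42 and 1.76 in differentiating neuron-like cells, a difference of 2.02 (SE 0.48, adjusted p = 0.0109, lost without plate 3 at 0.0621). This difference in cells without a source well was 1.31 (adjusted p = 0.476). Mesenchyme-like cells were as high, at 3.76 and 3.33. Slc16a4, of the monocarboxylate transporter family, was low everywhere, at 0.70 and 0.72 in otic epithelium-like and 0.06 and 0.09 in differentiating neuron-like cells (difference 0.64, adjusted p = 0.0452), and listed below an FPKM of 1 in all 41 surface ectoderm-like cells. Its call was lost without plate 1, 3, 4 or 5 (adjusted p up to 0.234) and in cells without a source well (0.75, adjusted p = 0.111). Slc44a1, a choline transporter, had 1.08 and 1.61 against 0.30 and 0.31 (1.04, adjusted p = 0.0453), and this call was lost without each of the 6 plates in turn (up to 0.172) and in cells without a source well (1.13, adjusted p = 0.284).

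Surface ectoderm-like cells were marked by Slc2a3, Slc38a4, Slc40a1 and Slc1a3. Slc2a3 (ENSMUSG00000003153, chr6:122727809-122801640, minus strand) encodes a facilitative glucose transporter with high affinity, known best from neurons. Its means were 6.39 and 7.66 in surface ectoderm-like cells, 1.29 and 1.48 in otic epithelium-like, 1.4 and 1.8 in neural tube progenitor-like, and 0.38 and 0.53 in differentiating neuron-like cells. The surface ectoderm-like means stood above those of every other group, the next being 2.33 in replicate 1 of cluster 3. Of these cells 37 of 41 held it (90.2%, exact 95% interval 76.9 to 97.3), at a median of 8.1 in them, as did 24.4% of the cells outside. Differences were 5.64 from otic epithelium-like (SE 0.59, adjusted p = 5.98e-06), 5.42 from neural tube progenitor-like (5.43e-06) and 6.57 from differentiating neuron-like cells (3.86e-07), on 6 of 6 plates each. These were the largest differences of any member in any of the 6 contrasts between the 4 classes. When FPKM was averaged before the log, the difference from otic epithelium-like cells was 4.75 with an adjusted p of 0.0737. In cells without a source well Slc2a3 was found in 13 of 15 surface ectoderm-like, 10 of 42 otic epithelium-like and 0 of 17 differentiating neuron-like cells.

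**Figure D4:**
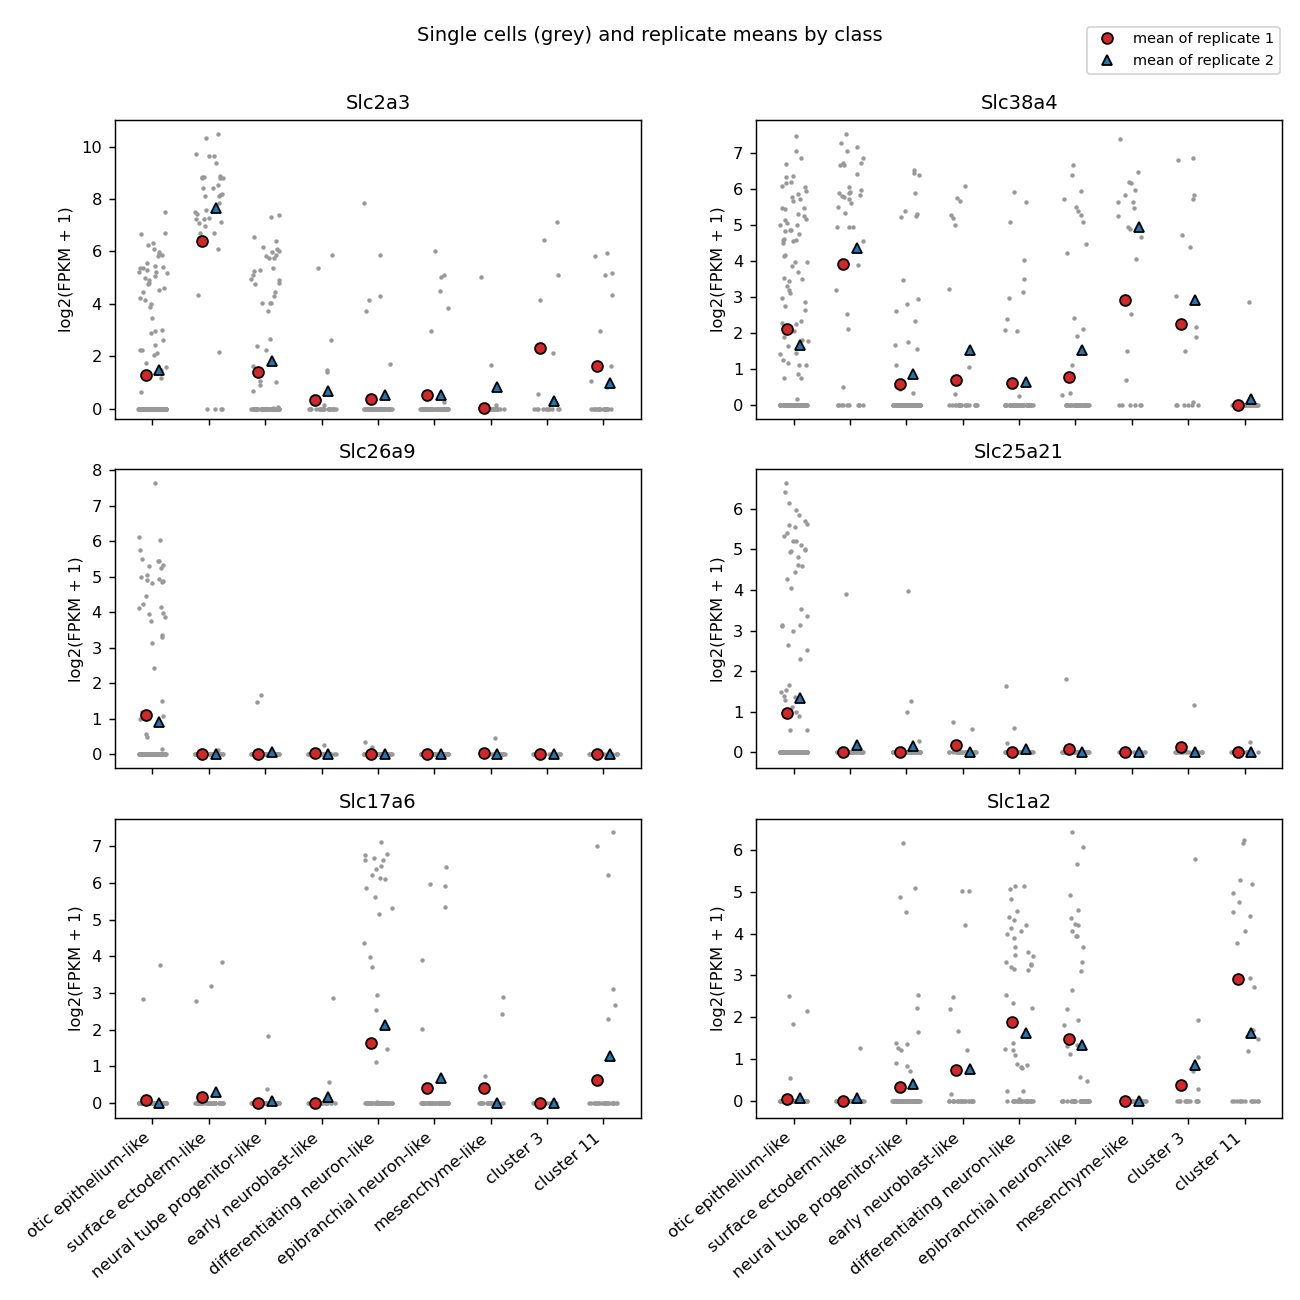
Log2(FPKM + 1) of 6 Slc genes (panels) in single cells (grey points, 491 in each panel) by class (x axis), with the mean of each replicate (red circle and blue triangle, n = 2). Slc2a3 is found in nearly all surface ectoderm-like cells, while Slc26a9, Slc25a21 and Slc17a6 are at 0 in most cells even of the class they mark.

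Slc38a4, a carrier of neutral and cationic amino acids (ENSMUSG00000022464, chr15:96994820-97055956, minus strand), had means of 3.89 and 4.35 in surface ectoderm-like cells. The other 3 classes had 2.11 and 1.66 (otic epithelium-like), 0.57 and 0.86 (neural tube progenitor-like) and 0.59 and 0.64 (differentiating neuron-like). The differences were 2.24 (SE 0.51, adjusted p = 0.0187), 3.41 and 3.51, and the first of these was lost without plate 3, 5 or 6 (adjusted p = 0.0983, 0.0599 and 0.0829). It was also lost when each cell was given to its highest marker list (adjusted p = 0.16). The same held with the log taken after averaging FPKM (0.212). Outside the 4 classes compared, mesenchyme-like cells overlapped with the surface ectoderm, at 2.92 and 4.93. Slc2a3 and Slc38a4 were found together in 28 of 41 surface ectoderm-like cells and at least 1 of them in 39, beside 27.1 cells with both if independent.

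Slc1a3, the glutamate-aspartate transporter known from astrocytes and radial glia (ENSMUSG00000005360, chr15:8634124-8710764, minus strand), had 2.34 and 2.08 in surface ectoderm-like cells. Neural tube progenitor-like cells were next among the 4 classes at 0.71 and 1.01, then otic epithelium-like cells at 0.43 and 0.34 and differentiating neuron-like cells at 0.04 and 0.20. The differences of surface ectoderm-like cells were 1.35 from the neural tube (SE 0.26, adjusted p = 0.00216, lost without plate 6 at 0.0602 and in cells without a source well at 0.0922), 1.82 from otic epithelium and 2.09 from differentiating neurons. With the log taken after averaging FPKM, the adjusted p was 0.531 against the neural tube and 0.135 against otic epithelium. Slc40a1, or ferroportin, the cell's iron exporter (ENSMUSG00000025993, chr1:45908068-45926523, minus strand), had 2.94 and 1.35 in surface ectoderm-like cells and at most 0.67 in any other group. Its transcripts were found in 17 of 41 cells (41.5%), and its differences were 1.92 to 2.01 (adjusted p = 0.000659 to 0.00172), on 5 of 6 plates. Among cells without a source well, Slc40a1 was found in 3 of 15 surface ectoderm-like and 1 of 42 otic epithelium-like cells, and none of its 3 calls remained there (adjusted p = 0.058 to 0.166). With the log taken after averaging FPKM, Slc40a1 was not called against otic epithelium (adjusted p = 0.133) or the neural tube (0.0895).

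Of 23 ion carriers and scaffolds, 3 were called higher and 1 lower in surface ectoderm-like cells than in neural tube progenitor-like cells, and 3 and 1 against differentiating neuron-like cells. Over all genes the shares were 4.17% higher and 1.55% lower against the neural tube, and 4.79% and 5.42% against differentiating neurons. Those higher against the neural tube include the scaffold genes Slc9a3r1 and Slc9a3r2. Slc12a4, a potassium-chloride cotransporter, had 2.41 and 2.22 there, 0.20 and 0.52 in neural tube progenitor-like cells (difference 1.96, SE 0.33, adjusted p = 0.000729), and 0.21 and 0.25 in differentiating neuron-like cells (2.08, adjusted p = 0.000203). Otic epithelium-like cells lay between, at 0.85 and 1.37, and that difference was not called. Slc12a2, the sodium-potassium-chloride cotransporter that later secretes potassium in the cochlea and vestibule, had 2.78 and 2.13 in surface ectoderm-like and 1.12 and 1.02 in differentiating neuron-like cells (1.39, adjusted p = 0.0451, lost without each of the 6 plates, up to 0.137). In cells without a source well that difference was 0.34 (adjusted p = 0.805). In otic epithelium-like cells Slc12a2 had 1.35 and 1.79 and was called in none of their contrasts.

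The scaffold gene Slc9a3r1 had 4.04 and 3.56 in surface ectoderm-like cells against 0.98 and 2.01 in neural tube progenitor-like cells (2.3, SE 0.53, adjusted p = 0.011, lost without plate 2 at 0.053) and 1.45 and 2.3 in differentiating neuron-like cells (1.92, adjusted p = 0.0238, lost without plate 2, 3 or 6, up to 0.104). Its differences in cells without a source well were 2.51 (adjusted p = 0.206) and 1.75 (0.324). Early neuroblast-like cells had similar levels to the surface ectoderm, at 3.57 and 3.84. Its relative Slc9a3r2 was called against the neural tube alone (1.08, adjusted p = 0.0444), a call lost without plate 1, 3, 4, 5 or 6 (up to 0.468) and in cells without a source well (1.24, adjusted p = 0.191). Slc44a1 was higher in surface ectoderm-like cells, at 1.21 and 2.47, than in neural tube progenitor-like (1.63, adjusted p = 0.0022, lost without plate 2 or 5, up to 0.0808) and differentiating neuron-like cells (1.53, adjusted p = 0.00222, lost without plate 5 at 0.059).

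Neural tube progenitor-like cells were marked by no Slc member in limma, and at an unadjusted p below 0.05 by 1, while 57 of all 10195 genes tested marked them. The members called higher in them were Slc2a1 and Slc20a1, each against 1 other class, and Slc25a5, against 2. Slc2a1, the glucose transporter of most embryonic cells and of blood-tissue barriers, had 4.13 and 4.4 in neural tube progenitor-like, 4.1 and 4.22 in surface ectoderm-like, 2.84 and 3.76 in otic epithelium-like, and 2.07 and 2.08 in differentiating neuron-like cells. It was called higher in the neural tube than in differentiating neurons (2.19, SE 0.55, adjusted p = 0.0185, lost without plate 2 or 4 at 0.0974 and 0.0581) and higher in surface ectoderm than in differentiating neurons (2.08, adjusted p = 0.0172, lost without plate 2 at 0.07). In cells without a source well these differences were 2.71 (adjusted p = 0.0761) and 2.09 (0.107). Slc2a1 and Slc2a3 were found together in 31 of 41 surface ectoderm-like cells (29.8 if independent). Both were held by 5 of 60 differentiating neuron-like cells (2.8 if independent), where 31 cells held neither.

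Slc20a1, a sodium-phosphate cotransporter, had 3.65 and 3.94 in neural tube progenitor-like and 1.75 and 2.02 in surface ectoderm-like cells (difference -1.91 for surface ectoderm minus neural tube, SE 0.52, adjusted p = 0.0313). That call was lost without plate 2, 3, 4, 5 or 6 (adjusted p up to 0.236) and in cells without a source well (-1.66, adjusted p = 0.226). The ADP/ATP carriers went opposite ways between neural tube progenitor-like and differentiating neuron-like cells. Slc25a5 had 9.75 and 9.5 in the neural tube and 8.82 and 8.77 in differentiating neurons, a difference of 0.83 (SE 0.20, adjusted p = 0.014). Slc25a4 had 8.52 and 8.4 in the neural tube and 9.52 and 9.55 in differentiating neurons, a difference of -1.07 (SE 0.22, adjusted p = 0.00333). Both directions held on 6 of 6 plates. After correction for transfer between wells the differences were 0.84 and -1.07, and the adjusted p-values 0.47 and 0.164. Leaving out plate 6 ended the Slc25a5 call (adjusted p = 0.0947), and so did scaling to the upper quartile (0.71, adjusted p = 0.0717) and the use of cells without a source well (0.64, adjusted p = 0.128). Slc25a5 was also lower in surface ectoderm-like than in neural tube progenitor-like cells (-0.69, adjusted p = 0.0488), a call lost without each of the 6 plates (up to 0.111).

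Of the 4 members that marked differentiating neuron-like cells, 3 are described: Slc17a6, Slc17a7 and Slc1a2. Slc17a6 and Slc17a7 encode the vesicular transporters VGLUT2 and VGLUT1, which load glutamate into synaptic vesicles and define glutamatergic neurons. They lie on the plus strand of the same chromosome, Slc17a6 (ENSMUSG00000030500) at chr7:51622006-51671119 and Slc17a7 (ENSMUSG00000070570) at chr7:45163949-45176142. As close relatives that rose in the same class, their 100 bases before the start are set side by side, with capitals as above. The Slc17a6 window (chr7:51621730-51621829, 1 of 2 listed starts) held 1 GGGCGG and that of Slc17a7 (chr7:45163821-45163920) held 3, and neither held CANNTG or TATAAA. The window of the other Slc17a6 start (chr7:51624537-51624636) held 1 CANNTG and none of the other 2 motifs.
Slc17a6: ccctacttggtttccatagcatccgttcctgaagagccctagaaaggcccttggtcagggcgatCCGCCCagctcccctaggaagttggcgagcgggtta
Slc17a7: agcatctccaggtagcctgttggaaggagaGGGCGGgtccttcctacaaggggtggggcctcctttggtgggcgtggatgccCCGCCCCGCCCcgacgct

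Slc17a6 had means of 1.63 and 2.13 in differentiating neuron-like cells, against 0.09 and 0.00 in otic epithelium-like, 0.17 and 0.30 in surface ectoderm-like, and 0.01 and 0.04 in neural tube progenitor-like cells. VGLUT2 transcripts were found in 22 of 60 of these neuron-like cells (36.7%, exact 95% interval 24.6 to 50.1), at a median of 6.0 in the cells that held them. The differences were 1.83, 1.64 and 1.85 (SE 0.24 each, adjusted p = 5.43e-05, 0.000109 and 6.11e-05), on 6 of 6 plates. Slc17a7 had 1.02 and 0.89 in differentiating neuron-like cells and at most 0.03 in the other 3 classes. VGLUT1 transcripts were found in 18 of 60 cells (exact 95% interval 18.8% to 43.2%), and the Slc17a7 differences were 0.94 to 0.95 (SE 0.18, adjusted p = 0.0011 to 0.00174), on 5 of 6 plates. Of the 60 cells, 10 held both transporters, 12 Slc17a6 alone, 8 Slc17a7 alone and 30 neither. Among the 17 differentiating neuron-like cells without a source well, Slc17a6 was found in 3 and Slc17a7 in 4. There the differences fell to between 0.65 and 1.0 in size, with adjusted p-values from 0.0688 to 0.178. When each cell was given to its highest marker list instead, the differences of Slc17a7 were 0.51 to 0.60 in size (adjusted p = 0.0715 to 0.13).

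Slc1a2, a plasma membrane glutamate transporter known best from astrocytes (ENSMUSG00000005089, chr2:102658659-102790784, plus strand), had 1.90 and 1.63 in differentiating neuron-like cells. The other classes compared had 0.04 and 0.06 (otic epithelium-like), 0.00 and 0.06 (surface ectoderm-like) and 0.33 and 0.40 (neural tube progenitor-like). Its differences were 1.71 (SE 0.35, adjusted p = 0.00313), 1.73 and 1.4 (adjusted p = 0.0175), and the last was lost without plate 2 or 6 (0.0669 and 0.0885). That last call was also lost with the log taken after averaging FPKM (adjusted p = 0.402) and with no filter (0.0536). Slc1a2 was not particular to this class, since cluster 11 had 2.91 and 1.61 and epibranchial neuron-like cells 1.47 and 1.35. Slc1a2 and Slc1a3, the glutamate transporters that share a role in glia, were rarely found together. Both were held by 1 of 60 differentiating neuron-like cells (1.5 if independent), 1 of 41 surface ectoderm-like cells (0.6) and 3 of 96 neural tube progenitor-like cells (2.3), so these counts lie close to those of an independent spread.

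Other members rose in differentiating neuron-like cells against some classes. Slc7a11, which takes up cystine in exchange for glutamate, had 2.92 and 2.64 there against 1.11 and 1.13 in otic epithelium-like cells (difference 1.66 in size, SE 0.43, adjusted p = 0.0199, lost without plate 2, 3, 4 or 6, up to 0.0621, and in cells without a source well at 0.246). It was found in all 60 differentiating neuron-like cells and in 85 of 143 otic epithelium-like cells. Slc29a1, an equilibrative nucleoside transporter, had 2.54 and 2.32 against 0.03 and 0.52 in surface ectoderm-like cells (adjusted p = 0.00728, lost without plate 1 or 6 at 0.0566 and 0.0514) and 0.75 and 0.78 in otic epithelium-like cells (adjusted p = 0.0482, lost without plate 1, 2, 4 or 6, up to 0.251). Slc18a2, the vesicular monoamine transporter, was found in 50.92% of all cells, with 2.99 and 2.76 in differentiating neuron-like and 1.18 and 0.80 in surface ectoderm-like cells (surface ectoderm minus neuron -1.88, adjusted p = 0.0215, lost without plate 1, 2 or 4, up to 0.263). The Slc18a2 difference in cells without a source well was -0.82 (adjusted p = 0.431). Slc43a1, a carrier of large neutral amino acids, had 2.44 and 2.70 against 1.13 and 0.59 in surface ectoderm-like cells (surface ectoderm minus neuron -1.71, adjusted p = 0.0226, lost without plate 1, 2, 4, 5 or 6, up to 0.393, and at -1.1 with adjusted p = 0.454 in cells without a source well). Slc37a1, a sugar-phosphate exchanger of the endoplasmic reticulum, had 2.27 and 1.22 against 0.28 and 0.16 in neural tube progenitor-like cells (adjusted p = 0.0201, lost without plate 2, 5 or 6, up to 0.0828, and in cells without a source well at 0.0798).

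Along the otic lineage, from epithelium to early neuroblast to differentiating neuron, 6 members were called. Slc25a21, Slc26a9, Slc17a6 and Slc17a7 passed the limit of 5% only through the class where they are high, so their direction was fixed by that limit, and the shares of all genes beside the counts tilt the same way. From otic epithelium-like to early neuroblast-like cells 0 members rose (against 0.991% of all genes, with 5 higher at an unadjusted p below 0.05 in limma) and 2 fell (1.14%, against 2.48%). These were Slc25a21, from 0.97 and 1.34 to 0.16 and 0.00 (difference -1.07, SE 0.17, adjusted p = 0.00104), and Slc26a9, from 1.09 and 0.91 to 0.03 and 0.00 (-0.99, SE 0.15, adjusted p = 0.000637). No cell of the 29 early neuroblast-like ones held either gene at an FPKM of 1, which allows a share of up to 11.9% (exact 95% interval). From early neuroblast-like to differentiating neuron-like cells 4 members rose (2.27%, against 2.64%) and 0 fell (against 0.481%, with 5 lower at an unadjusted p below 0.05 in limma).

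Of the 4 members that rose, 3 are described: Slc45a3, Slc17a6 and Slc17a7. Slc45a3 went from 0.00 and 0.37 to 1.81 and 2.95 (difference 2.19, SE 0.38, adjusted p = 0.00157). This call of Slc45a3 was lost when each cell was given to its highest marker list (1.3, adjusted p = 0.362). With the log taken after averaging FPKM it was lost as well (adjusted p = 0.167). Its otic epithelium-like level of 0.98 and 1.28 lay between, and differentiating neuron-like cells were also above otic epithelium-like cells (adjusted p = 0.0463, lost without plate 1, 4 or 6, up to 0.463, and in cells without a source well at 0.187) and surface ectoderm-like cells (adjusted p = 0.000627). Slc17a6 went from 0.00 and 0.16 to 1.63 and 2.13 (1.80, SE 0.24, adjusted p = 0.000254), the call of this step that held under every alternative that could test it. Slc17a7 went from 0.00 and 0.51 to 1.02 and 0.89 (0.70, adjusted p = 0.0336, lost without plate 1, 2, 4 or 6, up to 0.241). When each cell was given to its highest marker list, the Slc17a7 difference was 0.14 (adjusted p = 0.953). The call was also lost when classes were weighted by their cells (0.58, adjusted p = 0.065). With the log taken after averaging FPKM the adjusted p was 0.278. Replicate 1 holds 8 early neuroblast-like cells, which limits the precision of its means. No early neuroblast-like contrast could be fitted in cells without a source well, of which this class had 9.

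**Figure D5:**
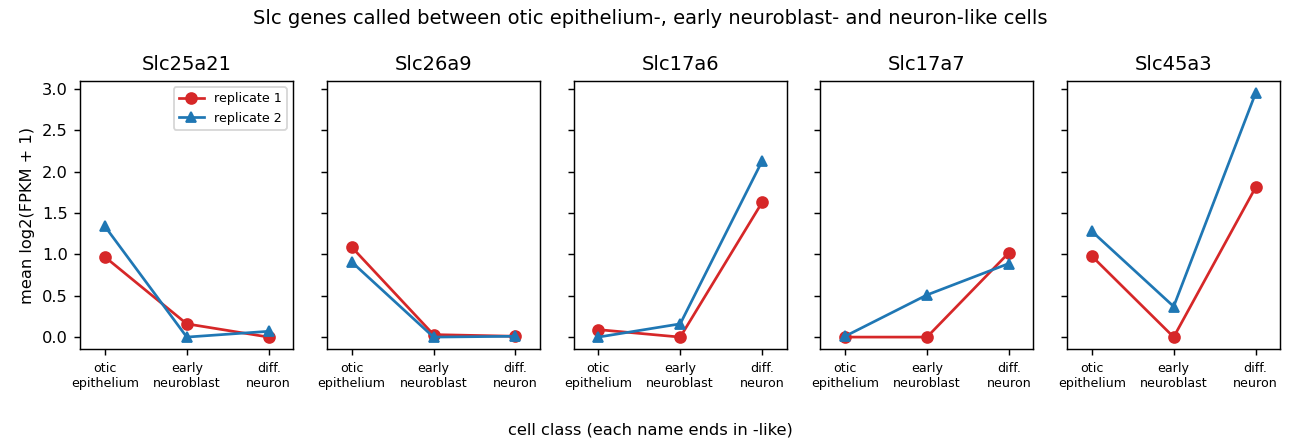
Mean log2(FPKM + 1) (y axis) of 5 Slc genes (panels) in otic epithelium-like, early neuroblast-like and differentiating neuron-like cells (x axis), 1 line for each replicate. Slc25a21 and Slc26a9 fall from otic epithelium-like cells to 0.16 or less, and Slc17a6 reaches 1.63 and 2.13 in differentiating neuron-like cells.

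Transmitter carriers outside the 4 classes set the neurons apart from each other as a description, since those contrasts were not tested. Slc18a3, the vesicular acetylcholine transporter, had 2.05 and 2.37 in epibranchial neuron-like cells and at most 0.67 in every other group. It was found in 23 of 54 epibranchial neuron-like cells (42.6%, exact 95% interval 29.2 to 56.8) and in 4 of 60 differentiating neuron-like cells. Slc17a6 in epibranchial neuron-like cells stood at 0.40 and 0.69, below differentiating neuron-like cells in both replicates, and was found in 6 of 54. Slc32a1, the vesicular transporter for the inhibitory transmitters GABA and glycine, was found in 2 of 491 cells.

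Slc26a4, or pendrin, the anion exchanger of the endolymphatic duct, was found in 2 of 491 cells, and Slc4a10, a sodium bicarbonate transporter, in 0. Monocarboxylate transporters for lactate and pyruvate, Slc16a1 and Slc16a3, were found in 50.31% and 39.51% of cells and called in none of the 8 contrasts, and neither had an unadjusted p below 0.05 in limma in any. Slc16a1 had 3.16 and 2.65 in otic epithelium-like and 0.79 and 1.28 in epibranchial neuron-like cells, and the replicate means of Slc16a3 ranged from 0.86 to 2.4 in epibranchial neuron-like cells alone. Among amino acid exchangers, Slc3a2 was found in 82.28% of cells and its light chain Slc7a5 in 21.59%, and together in 26 of 96 neural tube progenitor-like cells (22.5 if independent), 19 of 143 otic epithelium-like cells (19.1), 10 of 60 differentiating neuron-like cells and 3 of 41 surface ectoderm-like cells (4.7). Slc1a5, a glutamine transporter, had 0.21 and 0.52 in differentiating neuron-like cells and 1.21 and 1.41 in otic epithelium-like cells and was not called.

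Genes that work beside the carriers were called in part. Of 7 tested membrane partners and ion pumps 4 were called in at least 1 of the 8 contrasts, as were 17.3% of all genes; the lists are too short to set against that share. Bsg, the chaperone of monocarboxylate transporters, was lower in neural tube progenitor-like cells, at 6.06 and 6.57, than in otic epithelium-like cells, at 7.58 and 7.72 (adjusted p = 0.01). Emb, a related chaperone, was higher in surface ectoderm-like, at 4.53 and 5.27, than in differentiating neuron-like cells, at 3.07 and 2.3 (adjusted p = 0.00517). The sodium pump subunit Atp1b1 was higher in differentiating neuron-like cells, at 2.58 and 2.42, than in surface ectoderm-like cells, at 0.99 and 0.69 (adjusted p = 0.00616).

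Of 8 tested enzymes of hexose and lactate metabolism Hk1, Ldha and Ldhb were called in at least 1 contrast, beside the same 17.3% of all genes, which holds for the iron, transmitter and Slco lists as well. Ldhb, the lactate dehydrogenase subunit that favours lactate oxidation, had 8.03 and 8.47 in otic epithelium-like, 7.24 and 7.25 in surface ectoderm-like, 5.39 and 4.71 in neural tube progenitor-like and 4.42 and 4.48 in differentiating neuron-like cells. It fell by 3.04 from otic epithelium-like to early neuroblast-like cells (adjusted p = 5.2e-05). Ldha, the other main subunit, was lower in surface ectoderm-like cells, at 8.41 and 8.02, than in neural tube progenitor-like cells, at 9.39 and 9.51 (adjusted p = 0.00449). Of 3 tested iron genes the ferritin subunits Fth1 and Ftl1 were called, each in 1 contrast and by 0.64 and 0.60 in size. None of the 4 tested transmitter enzymes was called by limma, and 3 had an unadjusted p below 0.05 in some contrast. All 3 tested genes of the other transporter superfamily, Slco3a1, Slco4a1 and Slco5a1, were called, Slco3a1 rising by 1.49 from otic epithelium-like to early neuroblast-like cells (adjusted p = 0.0484) and Slco4a1 being higher in differentiating neurons than in all 3 other classes.

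The members whose 9 class means ran most like those of the leading marking gene of each class were named by Pearson's r. These means share their cells and libraries, so the values describe likeness and carry no test. Slc26a9 (r = 1.0 to 1 decimal), Slc30a4 (0.90) and Slc27a2 (0.90) were most like Slc25a21. Slc40a1 (0.93), Slc12a2 (0.88) and Slc1a3 (0.86) were most like Slc2a3. Slc7a11 (0.87) and Slc30a9 (0.86) were among the most like Slc17a6.

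Just above the limit of 5% stood Slc10a4, Slc16a7 and Slc27a2, each found in 5.09% of cells, and just below it Slc25a47 and Slc35f2 (4.89% each) and Slc9a8 (4.48%). Of the 178 Slc genes that did not pass, 64 were found in no cell and 121 in fewer than 5 cells. A limit over all cells hides genes of small classes, and 4 genes under it, chosen after their values were seen, were found in at least 20% of the cells of 1 group. Slc38a5, a glutamine carrier, was held by 24.1% of early neuroblast-like cells (7 of 29), with means of 1.85 in both replicates. Slc24a3, a sodium-calcium-potassium exchanger, was found in 12 of 60 differentiating neuron-like cells. In cluster 3 Slc39a12, a zinc importer, was found in 6 of 17 cells (35.3%) and Slc16a10, an aromatic amino acid carrier, in 5 of 17 (29.4%).

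A cell held between 18 and 91 of the 176 members at an FPKM of at least 1. Class medians ranged from 46 in neural tube progenitor-like cells to 58 in mesenchyme-like cells, and these classes also had the lowest and the highest median number of genes found per cell, 4193 and 5215, so the number of carriers found moved with the number of all genes found. The part of this in the class differences was not tested.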

How the data were processed

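Single tdTomato+ cells were sorted into plate wells, with cDNA from a SMARTer Ultra Low Input kit and Nextera XT libraries, per the labels' protocols. The submitters' processing notes name Cufflinks, TopHat, Bowtie and Bowtie2, cutadapt, SAMtools and FastQC with build mm10 and no versions. The deposited table holds values read here as log2(FPKM + 1): its name gives FPKM, and after undoing the log 99.69% of values above 0 had 6 significant digits to a relative error of 1e-07. No counts were given, so depth in reads is unknown, and a cell showed from 2552 to 6403 genes at an FPKM of 1 or more (median 4513). Symbols and coordinates came from GENCODE M21 (GRCm38), and 132 rows of 63 repeated identifiers were left out.

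Cells were clustered on 61 markers (scaled, clipped at 10, 15 principal components, 15 neighbours, Leiden at resolution 1.0, scanpy 1.11.5) into 12 clusters, which were named from their leading markers. Class means per replicate were fitted with limma 3.58.1 (class and replicate, trend), after a check on simulated data, for the 10195 genes past the limit of 5% of cells, markers left out. The replicate is a term because all classes share the plates of their replicate. Deviations of classes within a replicate correlated by -0.0973 to 0.106. Of the members, 137 had a RefSeq promoter entry, and among the marking genes Slc2a3 and Slc40a1 did not. Intervals of shares are exact binomial and cover counting error only. Genes named were those marking a class, called along the otic lineage, highest in level, next to the limit, most like a marking gene, or listed by name, with the called partner genes. Other called members are given for completeness. Some genes that these rules select count in the totals and are not reported here. Members and lists were chosen with earlier results of these data known.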

Additional observations from a re-analysis of the deposited data

How the results depend on the processing

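No call changed direction under any of the 19 alternatives that gave it a value (59 of the 65 calls in cells without a source well, 45 with the filter of 10% of cells). The 10 marking genes became 3 in cells without a source well, 4 with a filter of 10% of cells, 5 with the log taken after averaging FPKM (4 of them shared), 14 with no filter (8 of them shared), and 21, including all 10, when the fit weighted each class by its cells. With values corrected for transfer 10 genes marked a class, 9 of them shared. Called members, in the order otic epithelium-like minus surface ectoderm-like (6), minus neural tube (4) and minus differentiating neuron (14), surface ectoderm minus neural tube (10) and minus neuron (17), neural tube minus neuron (8), neuroblast minus otic (2) and neuron minus neuroblast (4), moved by over 1.5 times as follows. Cells without a source well gave 3, 0, 4 and 6 in the first 4 and 2 between neural tube and neuron, and no neuroblast contrast could be fitted there. Weighting by cells gave 14, 30, 36, 17, 26, 24 and 10 in the first 7. The 10% filter gave 3 for otic minus ectoderm, 8 for otic minus neuron and 0 for neuroblast minus otic, since Slc25a21 and Slc26a9 were not tested. The log after averaging gave 3, 7, 4, 11, 4, 4 and 2, with the otic minus neural tube count the same. No filter gave 10 for otic minus ectoderm, 6 for neuroblast minus otic and 7 for neuron minus neuroblast. Giving each cell to its highest marker list gave 1 for neuron minus neuroblast.

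Without 1 plate at a time the ranges were 5 to 7, 2 to 3, 9 to 11, 6 to 9, 12 to 15, 4 to 9, 2 to 4 and 2 to 4, and 6 to 10 for the marking genes. Without the replicate block the counts were 7, 4, 11, 9, 17, 8, 2 and 4, with 10 marking genes. The number of the replicate is shared by all classes, and this block lost 5 calls when taken away. Without replicate 1 or 2 no residual degrees of freedom remain, so differences alone could be had, and all 65 kept their direction. Averaging before the log moved the share of higher calls over all genes from 44.9% to 59.6% for otic minus ectoderm and from 84.6% to 74.5% for neuron minus neuroblast. Unknown read depth and small classes limit low genes most: a gene at 0 in a cell may have been missed.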
